A study of Drosophila melanogaster with 91 samples.

Results

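The transcripts of glycolysis and of ERR, a nuclear receptor that regulates them, were followed through the embryonic development of the fruit fly Drosophila melanogaster, 1 embryo at a time. The set was chosen by gene name and held 10 genes: Hex-A, Tpi, Gapdh1, Gapdh2, Pgk, Pglym78, Eno, Pyk, Ldh and ERR. Of these, 9 were matched to 1 of the 15682 fly genes in the count table, namely 8 enzymes and ERR. Pyk, which encodes pyruvate kinase, was not analysed here.

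Each of 91 whole embryos gave 1 library, and the labels name no strain, genotype or treatment that differs between embryos. Embryos had their chorion removed in bleach, were kept at 25°C under observation, and were frozen at a set time before or after cellularization, when the shared cytoplasm of the blastoderm is divided into cells. There was an embryo for every 15 min between -15 and 1335 min. Transcripts were counted by CEL-Seq, which tags polyadenylated RNA with a sample barcode, amplifies it and reads its 3' end.

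Glycolysis splits glucose into pyruvate and yields ATP without oxygen. Hexokinase (Hex-A) traps glucose in the cell by phosphorylation, and later enzymes interconvert, oxidize and dephosphorylate the triose sugars. Lactate dehydrogenase (Ldh) turns pyruvate into lactate and gives back the NAD+ that the pathway uses. In Drosophila, the estrogen-related receptor ERR is known to switch on glycolytic genes and Ldh in mid-embryogenesis, ahead of the rapid growth of the larva. Eggs also carry transcripts laid down by the mother, which are degraded as the embryo starts its own transcription.

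No labelled time had more than 1 embryo, so embryos were grouped into 7 windows of 13 consecutive embryos. Window 1 ran from -15 to 165 min, window 2 from 180 to 360, window 3 from 375 to 555, window 4 from 570 to 750, window 5 from 765 to 945, window 6 from 960 to 1140 and window 7 from 1155 to 1335 min. Levels are counts per 1000000 gene counts (CPM). The median library held 1644069 gene counts, and 6 libraries held under 548023 (120, 210, 825, 1065, 1155 and 1170 min). The library at 120 min held 3662. In it, Hex-A had 1 count, Gapdh2 had 6 and the other members had 0, so its CPM values of 273 for Hex-A and 1638 for Gapdh2 rest on those counts alone. In the other libraries 3 counts corresponded to between 0.907 and 7.66 CPM, and a gene at 0 may have been present below that level. Each library carried 1 of 4 library index codes, which followed labelled time. Libraries of 1 index are called a pool here, and how they were prepared was not read from the labels. Pools 4 (-15 to 315 min) and 5 (330 to 645 min) were sequenced on lane 3. Pools 6 (660 to 990 min) and 7 (1005 to 1335 min) were sequenced on lane 4. Maternal markers and muscle markers moved with the labels: the summed level of 8 maternal egg genes had a median of 11.5 CPM in window 7 and 598 CPM in window 1, and that of 14 muscle genes had medians of 32634 CPM in window 7 and 731 CPM in window 1. In 9 embryos (405, 540, 750, 810, 825, 1110, 1200, 1260 and 1335 min) the most similar other embryo was labelled over 195 min away. That at 825 min was most like the embryo at 75 min and held 2430 CPM of the maternal genes.

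Over the whole course all 9 measured members varied with labelled time by edgeR's quasi-likelihood F-test of a spline over 91 embryos (adjusted p under 0.05), as did 82.1% of the 8717 genes tested. The 7 enzymes other than Ldh were high in the youngest embryos, low in windows 2 and 3, and high again from window 5. Ldh lacked the early high phase, and ERR was at or below 14.6 CPM in every embryo from 15 to 150 min. With the library pool as a covariate 7 of the 9 were called, and Ldh (adjusted p = 0.286) and ERR (adjusted p = 0.462) were not. With libraries scaled on the spike-in RNAs, 8 were called and ERR was not (adjusted p = 0.504). Each library is a whole embryo, so a lower level cannot be told apart as fewer cells with the transcript or less transcript per cell.

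**Figure D1:**
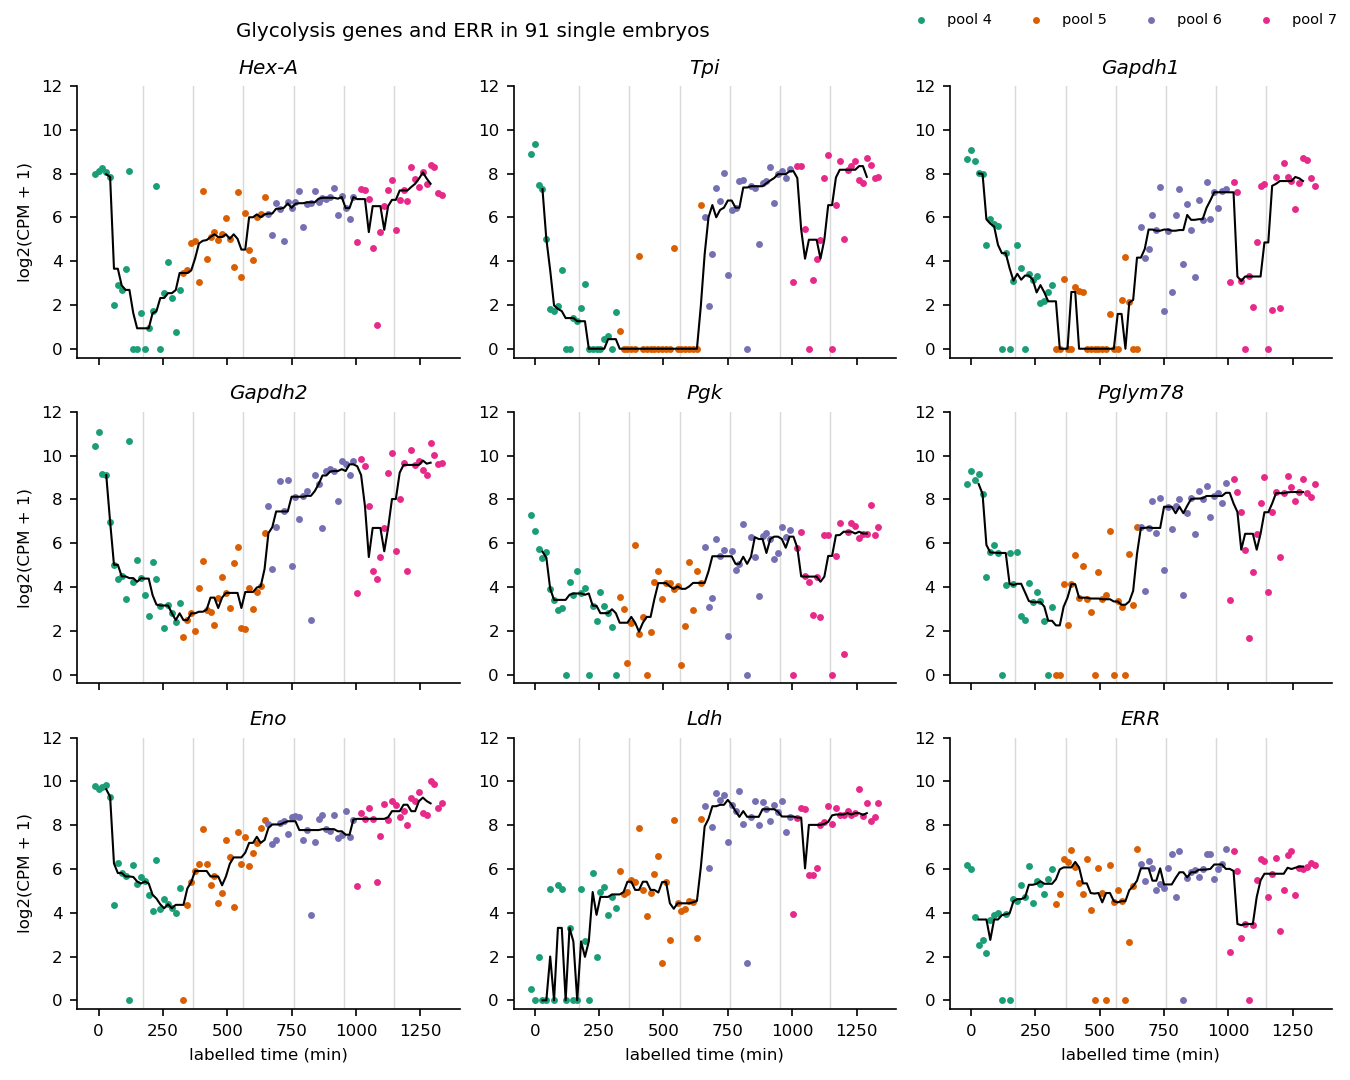
Level of each of the 9 measured members in each of 91 embryos, as log2(CPM + 1), against labelled time in min. Each point is 1 embryo, coloured by library pool; the black line is the running median over 7 embryos and grey lines part the 7 windows. All enzymes but Ldh start high, and Tpi and Gapdh1 lie at 0 in 18 and 14 of the 22 embryos of pool 5.

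The first comparison asked how the members changed in the hours around cellularization. The enzymes of the trunk of the pathway were abundant in the first embryos and dropped between 45 and 60 min, whereas Ldh was near 0 from the start. Hexokinase A (Hex-A, FBgn0001186) had 250, 273, 303, 269 and 229 CPM at -15, 0, 15, 30 and 45 min, and 3.03 CPM at 60 min. Enolase (Eno, FBgn0000579), which makes phosphoenolpyruvate, had 873, 794, 856, 925 and 628 CPM in the same 5 embryos and 19.2 CPM at 60 min. Neither gene came near its level of the first 5 embryos in the rest of window 1, apart from the single Hex-A count of the library at 120 min.

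In other enzymes the first values were already apart from each other. Triose phosphate isomerase (Tpi, FBgn0086355), which interconverts the triose phosphates, had 475, 644, 176, 155 and 31.3 CPM in the first 5 embryos and 2.53 CPM at 60 min. Gapdh2 (FBgn0001092), a glyceraldehyde 3-phosphate dehydrogenase, had 1377, 2192, 579, 549 and 125 CPM, then 31.3 CPM at 60 min. Both genes were lower at 15 min than at -15 and 0 min, while Hex-A and Eno at 15 min were near their values at -15 and 0 min.

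Gapdh1 (FBgn0001091), the gene of a second form of the same enzyme, had 405, 545, 384, 256 and 252 CPM and then 25.8 CPM at 60 min. The phosphoglycerate mutase gene Pglym78 (FBgn0014869) had 415, 621, 474, 569 and 302 CPM, then 20.7 CPM. Phosphoglycerate kinase (Pgk, FBgn0250906), the first step that returns ATP, had 157, 92.6, 52.8, 39.5 and 47.8 CPM and then 14.1 CPM. All 7 enzymes were thus lower at 60 min than in any of the 5 embryos before it, and so they were at 75 min. The embryo at 60 min was most similar to the one labelled 180 min. It held 94.5 CPM of the maternal genes, against 3519 CPM at 45 min and 598 CPM at 75 min. How sharp the step at 60 min was rests on that embryo.

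Ldh (FBgn0001258) had 0.437, 0, 3.00, 0 and 0 CPM in the first 5 embryos and 32.8, 0, 37.3 and 33.0 CPM at 60, 75, 90 and 105 min. It was listed at 0 in 7 of the 13 libraries of window 1. ERR (FBgn0035849) had 70.4, 62.9, 12.9, 4.79, 5.77 and 3.54 CPM from -15 to 60 min, then 11.9, 13.8 and 14.6 CPM at 75, 90 and 105 min. ERR had thus fallen by 30 min. Tpi, Gapdh1, Gapdh2 and Pgk were also lower at 30 min than at -15 and 0 min, before their further drop between 45 and 60 min. Hex-A, Eno and Pglym78 were not lower at 30 min than at -15 min. A fall of ERR ahead of the enzymes as a set was therefore not seen. The ERR values at 30, 45 and 60 min rest on 8, 7 and 7 counts and are not told apart. The next 3 values of ERR were higher, while those of the enzymes stayed far below their first levels.

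**Figure D2:**
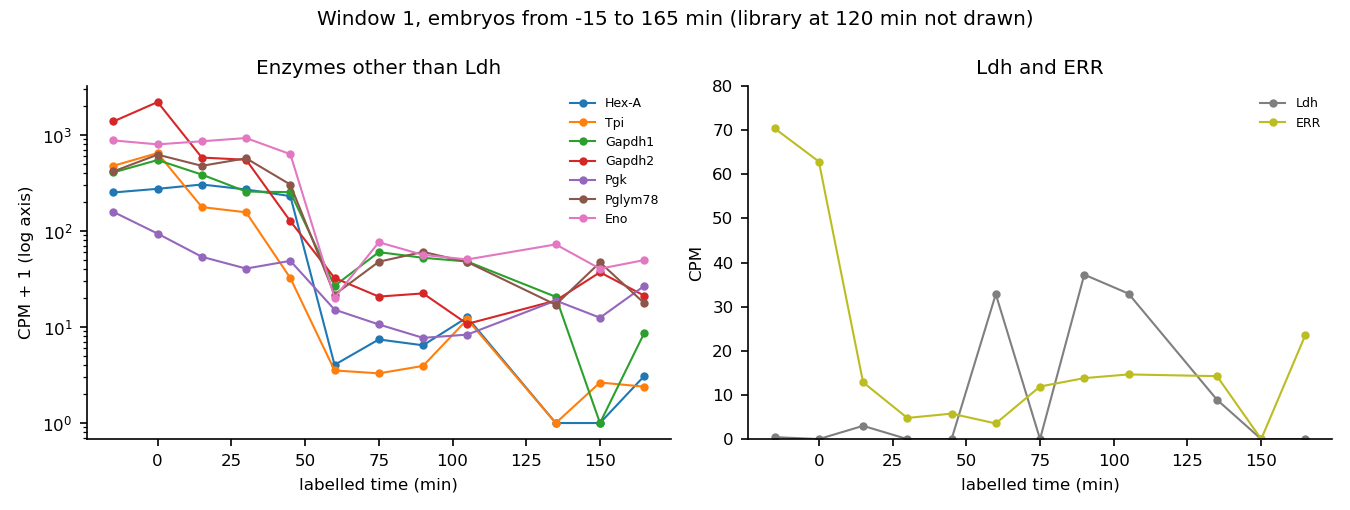
Members in the embryos of window 1 against labelled time in min, without the library at 120 min: enzymes other than Ldh as CPM + 1 on a log axis (left), Ldh and ERR in CPM (right). Each point is 1 embryo. Enolase is at 19.2 CPM at 60 min, against 628 CPM at 45 min, while Ldh is at 0 or near it in the first 5 embryos.

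In a linear trend across window 1 (edgeR's quasi-likelihood F-test, n = 13, log2 change per 60 min), 6 of 9 members fell, and 0 rose. Among the 6483 genes tested, 17% fell and 4.41% rose. The log2 slopes were -3.12 ± 0.41 (SE) for Tpi (adjusted p = 0.000146), -2.86 ± 0.51 for Hex-A, -1.98 ± 0.30 for Gapdh1, -1.83 ± 0.40 for Gapdh2, -1.47 ± 0.29 for Pglym78 and -1.47 ± 0.30 for Eno. The median slope of the 9 members was -1.47, against -0.21 over all genes tested. Pgk had a slope of -0.69 ± 0.26 (adjusted p = 0.0608) and was called by DESeq2, limma voom, spike-in scaling and without a filter on low counts. ERR, at -0.36 ± 0.33 (adjusted p = 0.441), and Ldh, at 1.66 ± 1.30 (adjusted p = 0.359), did not pass the test. Maternal egg markers fell beside the enzymes, 7 of 8 past the threshold with a median slope of -2.11, and their part in the result was not tested. Spike-in scaling changed the split over all genes to 91 higher and 2002 lower, against 286 and 1100, with a median slope of -0.89.

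Window 2 was then set against window 1. Here the enzymes and ERR parted: 5 of 8 members tested were lower in window 2 than in window 1 and ERR was higher, while 14% of 5739 genes were lower and 11.1% higher (edgeR, n = 13 each). Gapdh2 had a lowest, median and highest level of 2.31, 5.98 and 34.1 CPM in window 2, against 9.77, 36.1 and 2192 CPM in window 1. Its log2 fold change was -5.06 ± 0.79 (adjusted p = 3.84e-05). The windows overlap, and from 60 min on the embryos of window 1 other than that at 120 min held 9.77 to 36.1 CPM.

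Pglym78 had 0, 7.57 and 47.4 CPM in window 2, against 0, 46.7 and 621 CPM in window 1, a log2 fold change of -3.94 ± 0.71 (adjusted p = 0.000192). Gapdh1 changed by -4.12 ± 0.70, Eno by -3.28 ± 0.61 and Pgk by -2.23 ± 0.54 on the log2 scale, each past the threshold. Tpi was listed at 0 in 7 of 13 libraries of window 2 and was removed by the filter on low counts. Without that filter its log2 fold change was -6.36 (adjusted p = 4.72e-05).

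Hex-A had 0, 4.81 and 171 CPM in window 2, against 0, 11.6 and 303 CPM in window 1. Its log2 fold change of -2.09 ± 0.93 did not pass the test (adjusted p = 0.0967), though DESeq2 called it (-2.54, adjusted p = 0.0366). The high value of window 2 was the embryo at 225 min, with 171 CPM, and the other 12 embryos of that window held at most 27.0 CPM.

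ERR had 20.0, 37.8 and 86.9 CPM in window 2, against 0, 12.9 and 70.4 CPM in window 1. Every embryo of window 2 lay above 10 of the 13 of window 1, the exceptions being those at -15, 0 and 165 min. The log2 fold change was 1.29 ± 0.44 (adjusted p = 0.0301). It was 0.98 by DESeq2 (adjusted p = 0.0786) and 0.67 with spike-in scaling (adjusted p = 0.527), so this call depends on the method. Spike-in scaling changed the split over all genes from 636 higher and 804 lower to 236 higher and 563 lower, with a median log2 fold change of -0.48. Ldh had 0, 27.6 and 59.2 CPM in window 2, against 0, 0 and 37.3 CPM in window 1, a log2 fold change of 1.40 ± 0.82 (adjusted p = 0.216) that limma voom gave as 3.41 (adjusted p = 0.00252).

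Ratios within an embryo need no scaling between libraries, so each enzyme was also set against ERR and against Ldh in the same library (log2 ratio of counts + 0.5, two-sided permutation tests of the difference in means, n = 13 each). These comparisons were chosen after seeing the data. Where a gene was at 0, the ratio rests on the added 0.5 counts and on depth. Tpi was at 0 in 7 of 13 libraries of window 2, and Ldh in 7 of 13 of window 1. Other added counts were not tried for the ratios to ERR and Ldh. Relative to ERR, 7 of 8 enzymes were lower in window 2 than in window 1. The Gapdh2 to ERR log2 ratio averaged -2.29 ± 1.16 (SD) in window 2 and 3.01 ± 2.52 in window 1, a difference of -5.30 (p = 2e-05, the smallest the permutations can give). The Hex-A to ERR ratio differed by -3.86 (p = 0.00116) and the Tpi to ERR ratio by -6.18 (p = 2e-05), the bounds of the 7. The Ldh to ERR ratio averaged -1.08 ± 1.60 in window 2 and -2.46 ± 3.62 in window 1 and did not pass the test (difference 1.38, p = 0.220). Over the 16 comparisons with ERR the adjusted p of the 15 past the threshold was at most 0.00124. Relative to Ldh, all 7 other enzymes were lower in window 2 than in window 1, by -5.24 (Hex-A) to -7.56 (Tpi), with adjusted p of at most 0.00637 over 14 comparisons.

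**Figure D3:**
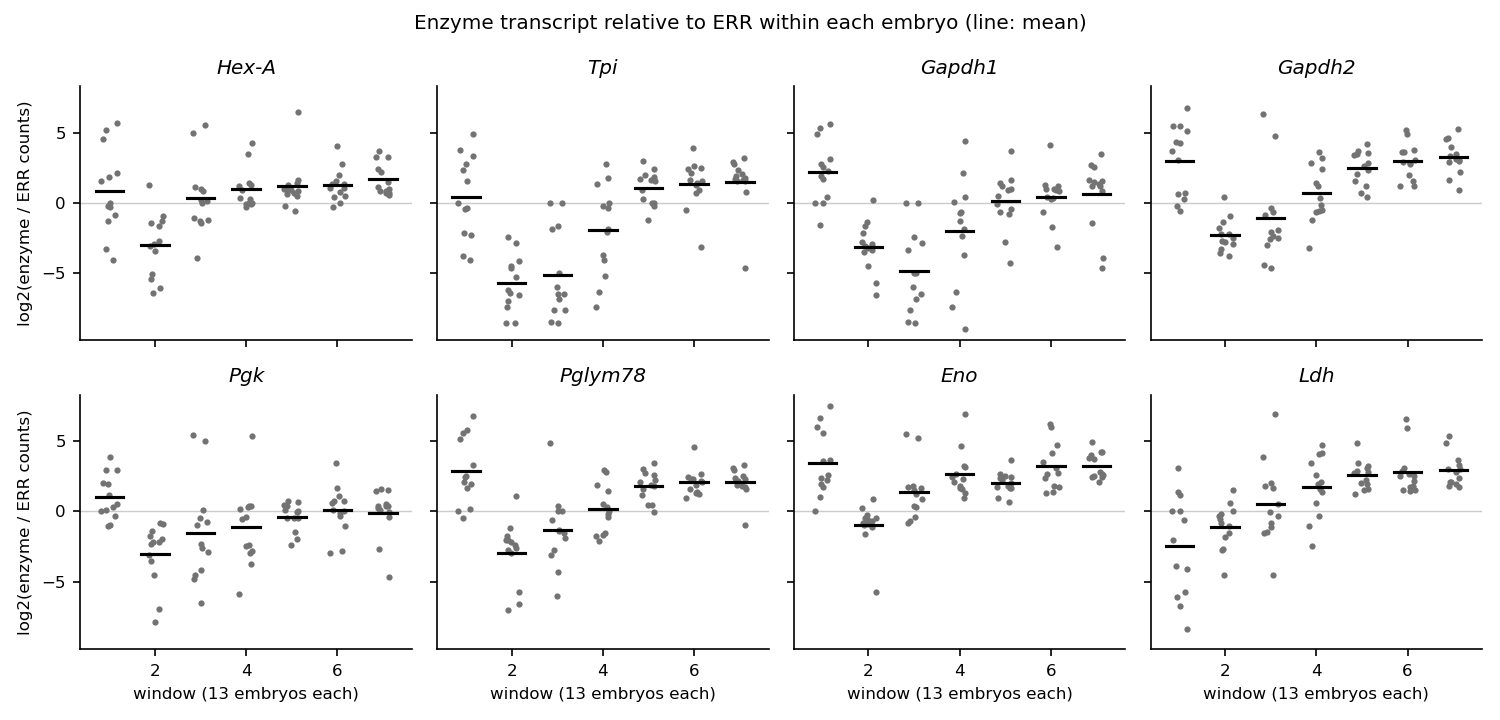
Log2 ratio of each enzyme's counts to the ERR counts of the same embryo (0.5 added to both) in windows 1 to 7. Each point is 1 embryo (13 per window) and bars are means. For Gapdh2 the mean is -2.29 in window 2 and 3.01 in window 1; Ldh alone has no such drop.

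Windows 2 and 3 held the low phase. Tpi was listed at 0 in 11 of 13 libraries of window 3 and Gapdh1 in 9 of 13. The exceptions for Tpi were the embryos at 405 min (18.0 CPM) and 540 min (22.9 CPM), which also had 236 and 300 CPM of Ldh, 145 and 142 CPM of Hex-A and 222 and 204 CPM of Eno. Both are among the embryos that were most similar to one over 195 min away, at 750 and 780 min.

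Eno was the first member to be called higher again. Its lowest, median and highest levels were 0, 19.9 and 82.7 CPM in window 2, 18.1, 72.7 and 222 CPM in window 3 and 69.9, 192 and 327 CPM in window 4. In window 3 it was the only 1 of 7 members tested that was higher than in window 2, with a log2 fold change of 1.66 ± 0.43 (edgeR adjusted p = 0.0292), where 2.13% of 5682 genes were higher and 1.39% lower. This call was lost within pool 5 (2.18 ± 0.86, 13 embryos against 3, adjusted p = 0.861), with spike-in scaling, and without the embryos at 405 and 540 min that resembled a distant time. DESeq2 also called Hex-A (2.74) and Ldh (1.57), and limma voom also called Hex-A (2.80).

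In window 4, Gapdh2 and Eno were higher than in window 3, 2 of 7 members tested, where 0.252% of 5546 genes were higher and 0.018% lower. Gapdh2 had 3.28, 30.5 and 468 CPM in window 4, against 2.91, 10.4 and 55.9 CPM in window 3, a log2 fold change of 3.23 ± 0.72. Eno changed by 1.48 ± 0.34 (edgeR adjusted p = 0.045 for both genes). Window 4 spans the change from pool 5 to pool 6. Within pool 5, 6 embryos of window 4 against the 13 of window 3 gave log2 fold changes of 0.62 ± 0.72 for Gapdh2 and 1.14 ± 0.43 for Eno, neither past the threshold (adjusted p = 1.00 for both). Both calls were lost with spike-in scaling, and limma voom called Eno alone. Without the embryos that resembled a distant time 5 members were called.

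Levels moved up and down from embryo to embryo inside window 4. Ldh had 6.31 CPM at 630 min, 311 CPM at 645 min, 465 CPM at 660 min, 65.7 CPM at 675 min, 244 CPM at 690 min and 716 CPM at 705 min. Tpi had 0, 93.6, 63.2, 2.82, 18.8 and 161 CPM in the same embryos, and Gapdh2 had 15.3, 86.9, 204, 27.2, 105 and 464 CPM. The embryo at 645 min was the last of pool 5, and Gapdh1 was at 0 in it. All 3 genes were low at 630 and 675 min and high at 645, 660 and 705 min.

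By pool, Tpi was at 0 in 1 of 23 embryos of pool 6 and in 18 of 22 of pool 5, and its median was 164 CPM in pool 6 and 0 CPM in pool 5. For Gapdh1 the numbers at 0 were 0 of 23 in pool 6 and 14 of 22 in pool 5. Pool and lane change between 645 and 660 min, so for embryos on either side of that time the pool and the stage cannot be told apart.

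From window 4 to window 7 the medians of 6 of the 9 members went up at every step. Gapdh2 had medians of 30.5, 331, 552 and 791 CPM, Tpi 9.38, 171, 221 and 230 CPM, Pglym78 44.6, 208, 224 and 310 CPM, Eno 192, 218, 311 and 487 CPM, Gapdh1 16.9, 59.4, 85.4 and 201 CPM, and Pgk 17.2, 45.9, 54.4 and 85.9 CPM. Hex-A had 71.2, 115, 90.3 and 167 CPM and Ldh 150, 399, 283 and 358 CPM. ERR had 36.0, 61.5, 59.2 and 65.5 CPM.

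The single steps did not pass edgeR's threshold, in pairs of windows where few of all genes passed it. Of 9 members tested, 0 were called between windows 5 and 4, 6 and 5, or 7 and 6 by edgeR, and the numbers at an unadjusted p under 0.05 were 4, 0 and 2. DESeq2 called 1 (Hex-A) and limma voom 2 (Tpi and Pglym78) between windows 5 and 4, and neither tool called any in the later pairs. Over all genes edgeR called 0% higher and 0.0956% lower in window 5 over window 4, 0.484% higher and 0.0645% lower in window 6 over window 5, and 0% in window 7 over window 6.

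Over the longer interval the members rose together. Set against window 2, all 9 members were higher in window 7 by edgeR, where 33.3% of 5967 genes were higher and 29.7% lower. The median log2 fold change of the 9 was 5.19, against 0.00 over all genes tested. Tpi had 0, 230 and 424 CPM in window 7, against 0, 0 and 6.83 CPM in window 2, a log2 fold change of 8.58 ± 0.83 (adjusted p = 1.77e-09). Gapdh2 had 25.7, 791 and 1516 CPM in window 7, against 2.31, 5.98 and 34.1 CPM in window 2, a log2 fold change of 7.19 ± 0.60 (adjusted p = 1.71e-10). For Gapdh2, 12 of the 13 embryos of window 7 lay above all of window 2.

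Eno had 259, 487 and 1020 CPM in window 7, against 0, 19.9 and 82.7 CPM in window 2, and Ldh had 266, 358 and 800 CPM, against 0, 27.6 and 59.2 CPM. For these genes the windows did not overlap. Their log2 fold changes were 5.19 ± 0.46 and 4.85 ± 0.42. Pglym78 changed by 5.69 ± 0.69, Gapdh1 by 5.65 ± 0.79, Pgk by 4.61 ± 0.64 and Hex-A by 4.22 ± 0.76 on the same scale.

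ERR rose least among the 9. It had 7.99, 65.5 and 113 CPM in window 7, against 20.0, 37.8 and 86.9 CPM in window 2, a log2 fold change of 1.51 ± 0.34 (edgeR adjusted p = 0.000332). The groups overlapped over most of their range. With spike-in scaling, under which the median of all genes was -0.96 and the split was 1069 higher and 2909 lower in place of 1986 and 1774, ERR changed by 0.57 (adjusted p = 0.236), and the 8 enzymes stayed called. In ratios within an embryo all 8 enzymes were higher relative to ERR in window 7 than in window 2, by 2.96 (Pgk, p = 0.0005) to 7.24 (Tpi, p = 2e-05). The Gapdh2 to ERR ratio averaged 3.24 ± 1.20 in window 7 and -2.29 ± 1.16 in window 2 (difference 5.53, p = 2e-05). Relative to Ldh, Tpi of 7 enzymes passed the test (3.23, p = 0.00364, adjusted p = 0.00637). Without the shallow libraries Gapdh2 passed too (2.37, adjusted p = 0.0029, against 1.51 and 0.111 with all libraries). Windows 2 and 7 come from different pools and lanes, which cannot be told apart from stage here.

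**Figure D4:**
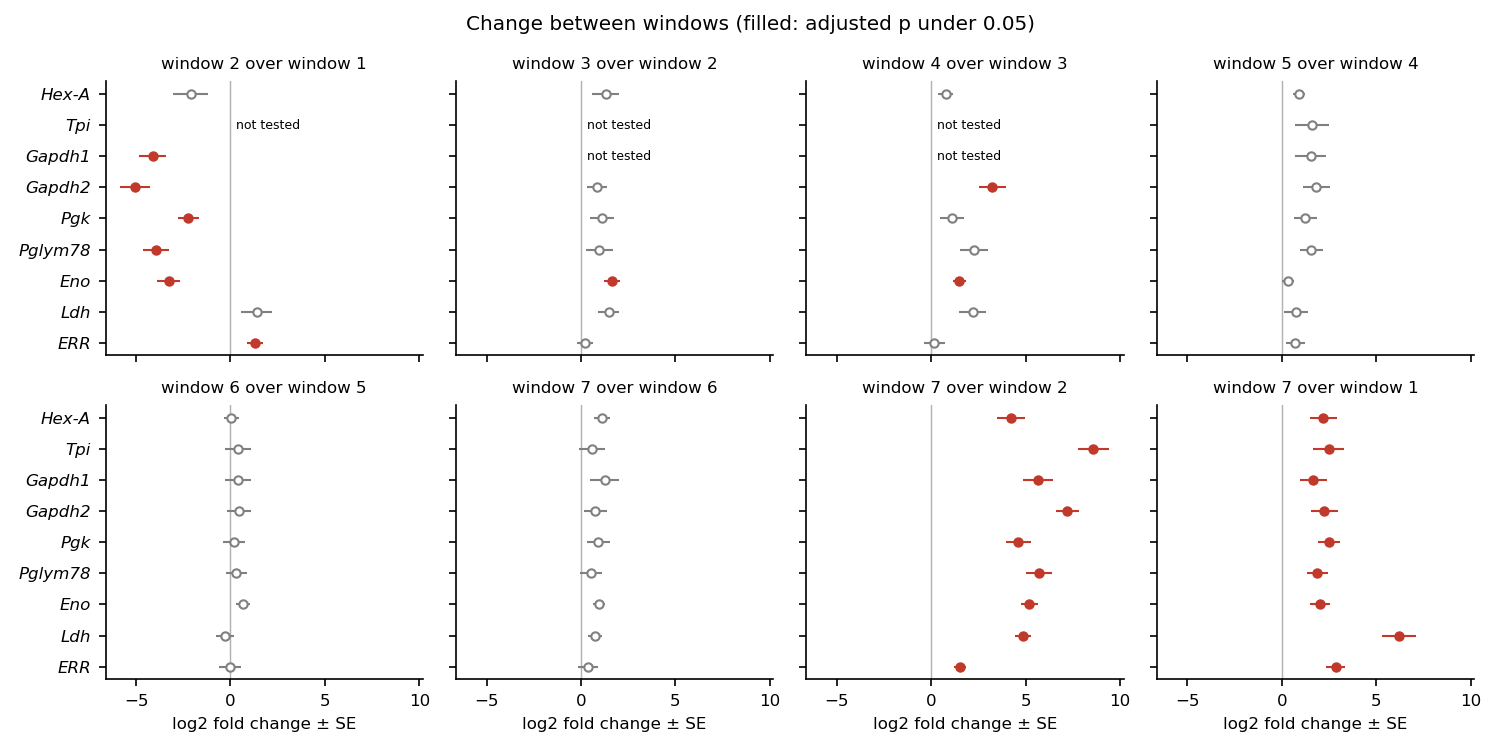
Log2 fold change ± SE (edgeR) of each member in 8 comparisons of windows, 13 embryos each. Filled red points have an adjusted p under 0.05 over all genes tested; members removed by the filter on low counts are marked as not tested. Falls of Gapdh1, Gapdh2, Pgk, Pglym78 and Eno in window 2 stand beside a rise of ERR, and all 9 members are higher in window 7 than in window 2.

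A last comparison set window 7 against the whole of window 1, of which 5 embryos came before the drop and 8 after it. All 9 members were higher in window 7 than in window 1 (edgeR; 31.7% of 5527 genes were higher and 26.1% lower), but only Ldh was called with spike-in scaling. Ldh had 266, 358 and 800 CPM in window 7, against 0, 0 and 37.3 CPM in window 1, a log2 fold change of 6.20 ± 0.88 (adjusted p = 6.04e-07), and the windows did not overlap. ERR changed by 2.87 ± 0.50 and Pgk by 2.51 ± 0.57. The other 6 ranged from 1.66 ± 0.72 (Gapdh1, adjusted p = 0.0472) to 2.49 ± 0.83 (Tpi).

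These values average the high first 5 embryos with the low ones that follow in window 1. Hex-A had a median of 167 CPM in window 7, against 229 to 303 CPM in those first 5 embryos. Eno had a median of 487 CPM in window 7, against 628 to 925 CPM in them, and Gapdh1 one of 201 CPM, against 252 to 545 CPM. For these 3 genes every one of the first 5 embryos thus lay above the median of window 7. The highest single value of Gapdh2 was 1516 CPM in window 7, against 2192 CPM in window 1, and that of Tpi was 424 CPM in window 7, against 644 CPM in window 1. Under spike-in scaling the median over all genes was -1.38, against 0.08 with the usual scaling, and the split was 734 higher and 2676 lower, against 1750 and 1441. Gapdh1 was -0.17 under that scaling, and was not called by DESeq2 (1.21, adjusted p = 0.141) or limma voom (1.35, adjusted p = 0.184) either.

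The 2 glyceraldehyde 3-phosphate dehydrogenase genes did not keep 1 proportion. The log2 ratio of Gapdh2 to Gapdh1 counts averaged 2.62 ± 1.52 (SD) in window 7 and 0.78 ± 2.17 in window 1 (n = 13 each), a difference of 1.84 (two-sided permutation test, p = 0.0194). It ranged from 1.41 to 6.14 in window 7 and from -2.23 to 5.49 in window 1. The mean of window 1 joins embryos before and after the drop. At -15 and 0 min Gapdh2 had 3148 and 5891 counts, against 927 and 1465 of Gapdh1. At 120 and 150 min it had 6 and 22 counts, against 0 and 0. The difference is thus one between windows and not between the first embryos and the late ones. With 0.1 counts added in place of 0.5 the difference was 1.72 (p = 0.0915). Per window the median ratio was 0.59, 0.40, 4.39, 2.14, 2.51, 2.37 and 1.86 in windows 1 to 7. It was highest in window 3, where Gapdh1 was at 0 in 9 of 13 libraries. Reads from stretches that the paralogs share could be counted for either or for neither, so the level of each single copy is uncertain.

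The members were also ordered by when they rose, from the running median over 7 embryos: the rise time is the first time after its minimum at which it reached 0.5 of its later maximum. ERR reached this level at 270 min, Ldh at 675, Pglym78 at 750, Tpi at 810, Pgk at 855, Gapdh2 at 870, Gapdh1 at 945, Eno at 1005 and Hex-A at 1170 min. All 8 enzymes thus came after ERR. This is a description without a test. The order depended on the settings: running medians over 5 and 9 embryos gave 345 and 315 min for ERR, and the rise time of Eno over all settings lay between 705 and 1125 min and that of Hex-A between 840 and 1170 min. Without the 6 shallow libraries the minimum of ERR moved to 1035 min, a dip among late embryos, and its rise time to 1080 min, so that only 1 enzyme came later. Neighbours such as Pgk and Gapdh2, 15 min apart, are not separated at this resolution.

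Whether embryos with more ERR than others of like age also held more of each enzyme transcript was tested on residuals of log2(CPM + 1) from a spline of labelled time, over 91 embryos. All 8 enzymes passed in both measures. For Pglym78, Pearson's r was 0.632 and Spearman's rho 0.590 (permutation p = 1e-05 for each, the smallest they can give). For Tpi they were 0.600 and 0.626, for Eno 0.619 and 0.533, and for Ldh, the lowest rho, 0.447 and 0.314 (permutation p = 2e-05 and 0.00244). Without the 2 embryos of most extreme ERR residual, r was 0.562 for Pglym78, 0.531 for Tpi, 0.542 for Eno and 0.335 for Ldh. It was 0.416 for Gapdh1 and 0.335 for Hex-A. For Gapdh2 it was 0.266, against 0.398 with all embryos, and for Pgk 0.273, against 0.377. The 16 tests had an adjusted p of at most 0.00244. The permutations treat embryos as independent, and neighbouring embryos share a pool and a stage.

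Many genes had such a relation to ERR. The median rho of ERR residuals with the 8716 other genes tested was 0.222, with a 75th percentile of 0.388. The share of genes with a rho at or above that of the enzyme was 1.31% for Tpi, 2.50% for Pglym78, 6.31% for Eno, 10.5% for Gapdh2, 14.5% for Gapdh1, 14.8% for Hex-A, 30.1% for Pgk and 36.4% for Ldh. For Pgk and Ldh the relation to ERR was therefore no closer than for about 1 in 3 genes.

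The relation was also computed within each library pool, and differences between pools were not tested. In pool 7 (n = 23) r lay between 0.592 (Gapdh1) and 0.837 (Pglym78) for all 8 enzymes, and in pool 6 (n = 23) between 0.150 (Hex-A) and 0.810 (Eno). The high r values of pool 6 depended on the shallow library at 825 min. Without the shallow libraries r in pool 6 (n = 22) lay between 0.013 (Ldh) and 0.418 (Pgk), and was 0.258 for Eno. With all libraries rho in pool 6 lay between 0.019 (Ldh) and 0.542 (Pgk). In pool 5 (n = 22) r was -0.041 for Gapdh1, -0.203 for Pgk and 0.174 (Gapdh2) to 0.602 (Pglym78) for the other 6. In pool 4 (n = 23) r was -0.116 for Gapdh2 and 0.147 (Hex-A) to 0.756 (Gapdh1) for the other 7. The negative r of Gapdh2 depended on the shallow libraries. Without them its r in pool 4 (n = 21) was 0.388 and its rho 0.460, and with all libraries its rho was 0.251. In pool 5 rho was 0.098 for Gapdh1, which was at 0 in 14 of the 22 embryos, and -0.305 for Pgk. Hence, with all libraries and the spline of 5 degrees of freedom, only Pgk was negative in both measures within a pool. Gapdh1 showed little relation in pool 5. With a spline of 8 degrees of freedom, Gapdh1 in pool 5 (r -0.141, rho -0.222) and Gapdh2 in pool 4 (r -0.356, rho -0.023) were negative in both as well. Among the enzymes themselves the 28 pairs had a median rho of 0.736 in levels and of 0.478 in residuals, a description over embryos that share library depth.

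Several embryos of windows 6 and 7 were low in most members, and they were also high in heat shock transcripts and low in muscle transcripts. At 1080 min Gapdh2 had 19.9 CPM, Eno 40.9 CPM, Ldh 52.0 CPM and ERR 0 CPM, with a sum over 8 heat shock genes of 5951 CPM and over 14 muscle genes of 1718 CPM. At 1035 min Gapdh2 had 730 CPM, Eno 312 CPM, Ldh 441 CPM and ERR 59.2 CPM, with sums of 257 CPM for heat shock and 29558 CPM for muscle genes. At 1065 and 1095 min Gapdh2 had 25.5 and 40.2 CPM with heat shock sums of 6095 and 5605 CPM. In all 9 of these 26 embryos with a heat shock sum of 2388 CPM or more, Gapdh2 was at or below 258 CPM.

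Members differed in this. At 1200 min Gapdh2 had 25.7 CPM, Gapdh1 2.66 CPM, Pgk 0.887 CPM and ERR 7.99 CPM, while Ldh had 358 CPM, the median of window 7. The heat shock sum was 3414 CPM and the muscle sum 4860 CPM. At 1110 min Gapdh2 had 103 CPM and Pgk 5.20 CPM, while Ldh had 257 CPM, against a median of 283 CPM in window 6. In these 2 embryos Ldh was near its window median while the Gapdh genes and Pgk were far below theirs. Ldh was not low either in other embryos with a heat shock sum of 2388 CPM or more. It had 423 CPM at 1050 min in window 6, and 266 and 442 CPM at 1155 and 1170 min in window 7. Gapdh1 had 7.54, 0 and 2.45 CPM in these embryos. Keeping such levels was not particular to Ldh. At 1110 min Hex-A had 90.3 CPM and Eno 503 CPM, against medians of 90.3 and 311 CPM in window 6. At 1200 min they had 106 and 259 CPM, against medians of 167 and 487 CPM in window 7. In other embryos Ldh was low as well, with 14.6, 51.0, 52.0 and 64.2 CPM at 1005, 1065, 1080 and 1095 min. Eno had 36.4, 311, 40.9 and 182 CPM in the same embryos. The part of these heat shock and muscle levels in the late comparisons and in the relation to ERR was not tested.

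**Figure D5:**
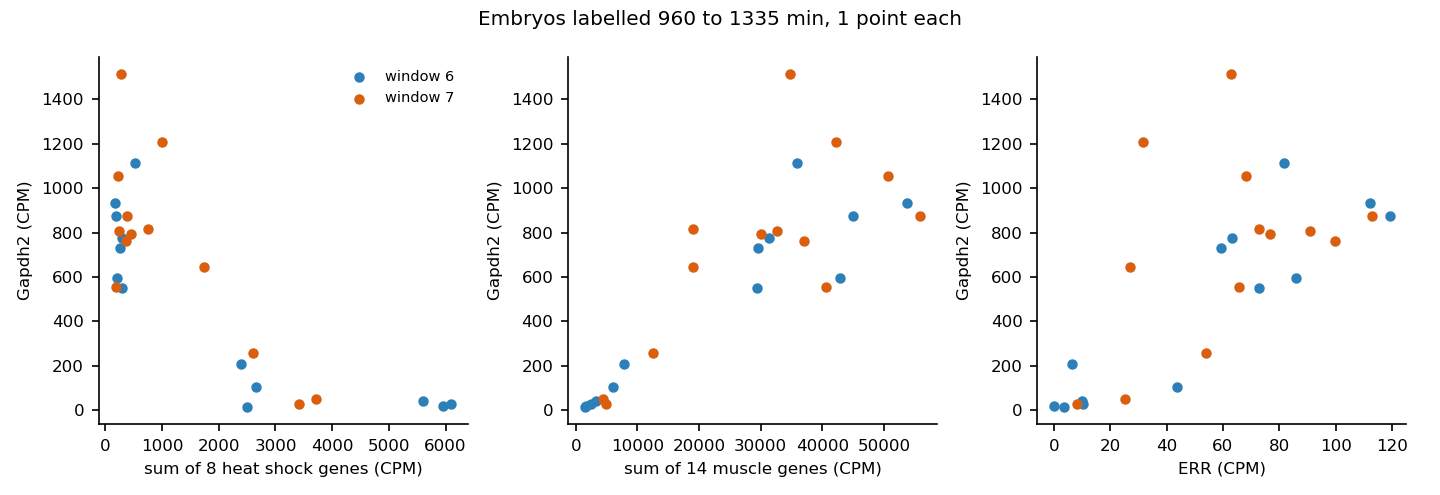
Gapdh2 level (CPM) of each of the 26 embryos of windows 6 and 7 against the summed level of 8 heat shock genes, the summed level of 14 muscle genes and the ERR level, all in CPM. Each point is 1 embryo. The 9 embryos with a heat shock sum of 2388 CPM or more have at most 258 CPM of Gapdh2.

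Muscle markers rose over the same windows as the enzymes. All 14 were higher in window 7 than in window 2, with a median log2 fold change of 9.31, and the sums had medians of 1265, 2400, 4524, 18496, 29492 and 32634 CPM in windows 2 to 7. Their part in the rise of the enzymes was not tested.

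Other genes of sugar metabolism were read from the same fits, and their counts stand against the shares over all genes given above: 33.3% higher and 29.7% lower in window 7 over window 2 (1069 genes higher and 2909 lower with spike-in scaling, at a median of -0.96), and 11.1% higher and 14% lower in window 2 over window 1. Of 4 other glycolysis genes tested, 3 were higher in window 7 than in window 2. Pfk, phosphofructokinase, averaged 169 ± 79.4 CPM (SD) in window 7 and 9.36 ± 11.6 CPM in window 2, a log2 fold change of 5.08 ± 0.71. Ald1, the aldolase that makes the triose phosphates, averaged 2341 ± 975 CPM in window 7 and 186 ± 146 CPM in window 2 (4.50 ± 0.47), and Pgi, glucose phosphate isomerase, changed by 2.82 ± 0.39. In window 2 over window 1, Pfk changed by -2.46 ± 0.66 and Ald1 by -1.35 ± 0.38, the 2 called of 4 tested. The other 5 genes of that list, among them the hexokinases Hex-C, Hex-t1 and Hex-t2, did not pass the filter on low counts in either comparison. Pfk and Ald1 thus changed in the same directions as the measured enzymes.

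Genes of sugar storage and transport were read next. All 8 glycogen and trehalose genes tested were higher in window 7 than in window 2 (median log2 fold change 3.67), as were 33.3% of all genes. Glyp, glycogen phosphorylase, changed by 6.66 ± 0.58, and Treh, which cleaves the blood sugar trehalose, by 5.06 ± 0.79. In window 2 over window 1, 3 of 4 tested fell, as did 14% of all genes, with Glyp at -3.42 ± 0.72. Both genes of the glycerol phosphate shuttle, which reoxidizes NADH as Ldh does, were higher in window 7 than in window 2, Gpo1 by 5.36 ± 0.84 and Gpdh1 by 4.39 ± 0.59. Of 4 gluconeogenesis genes tested 3 were higher, with fbp, fructose bisphosphatase, at 5.33 ± 0.63.

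The pentose phosphate branch was split. In window 7 over window 2, where 33.3% of all genes were higher and 29.7% lower, 6 of 7 genes were higher, with Pgd, phosphogluconate dehydrogenase, at 5.57 ± 0.74 and Zw, glucose 6-phosphate dehydrogenase, at 3.88 ± 0.93, while Rpe, ribulose phosphate epimerase, changed by -1.29 ± 0.46. Of the genes of pyruvate entry and the citric acid cycle, 15 of 16 were higher in that comparison (median 2.01), led by Mdh2, mitochondrial malate dehydrogenase, at 6.33 ± 0.67. In window 2 over window 1, 6 of these 16 were lower and 1 was higher, with Mdh1 at -3.38 ± 0.54. The median of the 16 was -0.70 in that comparison, against -2.75 for the 8 members tested and -0.07 for all genes.

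Among 6 other regulators of sugar and hypoxia responses tested in window 7 over window 2, 4 were higher and 1 was lower, beside 33.3% and 29.7% of all genes. The sugar-responsive gene sug changed by 4.08 ± 0.88, and tgo, the partner of the hypoxia factor sima, by -1.59 ± 0.23. In window 2 over window 1, Myc (1.41 ± 0.22) and bigmax (1.09 ± 0.35), a partner of the sugar sensor Mondo, were higher, 2 of 5 tested, beside 11.1% of all genes. ERR was thus not the only regulator of the set that was higher in window 2 while the enzymes were lower.

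Genes whose pattern was most like that of the members were ranked by Spearman correlation of log2(CPM + 1) over the 91 embryos, as a description. With ERR the 8 highest were COX7A (0.787), ND-51 (0.776), UQCR-6.4 (0.762), Chmp1 (0.756), sug (0.726), Cox17 (0.716), SERCA (0.715) and SdhC (0.715), where the median over all genes was 0.163. The enzymes lay between 0.331 (Gapdh1) and 0.488 (Tpi) on that measure. COX7A, a subunit of cytochrome c oxidase, had medians of 60.7, 102, 104, 112, 166, 151 and 201 CPM in windows 1 to 7.

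With the mean of the 8 enzymes the highest were Vha55 (0.901), LamC (0.900), Tsp42Ef (0.897), Mdh2 (0.897), Vha68-2 (0.895), Sfxn1-3 (0.891), Got2 (0.888) and Pfk (0.887), where the median over all genes was 0.0543 and ERR had 0.515. Vha55, a subunit of the vacuolar proton pump, had medians of 54.2, 14.7, 31.7, 73.5, 136, 127 and 291 CPM. None of the 8 genes most like ERR was among the 8 most like the enzymes. With lists this short out of 8717 genes tested, the lack of a shared gene carries little information.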

How the data were processed

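The values are raw counts of reads per gene, deposited by the authors as a single table with a column for each embryo. The submitters' processing notes name CASAVA 1.8, Bowtie2 2.1.0, HTSeq 0.5.4p3 and genome build BDGP5. Strand setting and molecular identifiers were not given in the sources used here. Of all counts, 60.7% fell on genes, 3.29% on the 92 ERCC spike-ins and 36.1% on 5 summary lines; library sizes and tests used genes alone. Gene names came from a table given with another build (15002 of 15682 identifiers matched), so no coordinates are given.

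Windows, trend and spline (5 degrees of freedom) were fitted over all genes with edgeR 4.0.16 (quasi-likelihood F-test, TMM, filterByExpr, Benjamini-Hochberg, R 4.3.3), each window comparison on its 26 embryos. SE was computed from the log2 fold change and its F statistic. Alternatives were DESeq2 1.42.0, limma 3.58.1 voom, spike-in scaling, no filter, a pool covariate, 1 pool only, other spline settings, and leaving out embryos. Permutation tests drew 100000 resamples (SciPy 1.17.1). The edgeR fits were tested on simulated data.

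Members, lists and tests were chosen with earlier results of these data known. Listed genes are named by the largest fold change among up to 4 called per list, and like genes as the 8 highest correlations. Mothers and plates are not in the labels, so p-values reflect only how these embryos vary, including change over the 195 min of a window.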

Additional observations from a re-analysis of the deposited data

How the results depend on the processing

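Of 8 members tested in window 2 over window 1, the number called was 5 to 7 by the alternatives on those genes, and all 9 were higher in window 7 than in window 2 by each alternative except spike-in scaling, which lost ERR. In window 7 over window 1 the 9 calls became 1 with spike-in scaling. In window 3 over window 2 the 1 call became 3 by DESeq2, 2 by limma voom, and 0 with spike-in scaling, within 1 pool or without embryos most similar to one over 195 min away. In window 4 over window 3 the 2 calls became 4 by DESeq2, 1 by limma voom, 6 without a filter on low counts, 5 without those embryos, and 0 with spike-in scaling or within 1 pool. In window 5 over window 4 the 0 calls became 1 by DESeq2 and 2 by limma voom. The Gapdh2 to Gapdh1 difference was 1.72 with 0.1 counts added and no longer past the threshold. Without the shallow libraries 1 enzyme rose later than ERR, in place of 8, and 2 enzyme to Ldh ratios (Tpi and Gapdh2) in place of 1 (Tpi) differed in window 7 over window 2. The causes were not tested.

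Signs turned only for values that were not called, save Gapdh1 in window 7 over window 1 (-0.17 with spike-in scaling). For ERR these were -0.090 by limma voom (window 3 over 2), -0.13 with spike-in scaling and -0.21 within 1 pool (window 4 over 3), and 0.022 by DESeq2, 0.045 without the distant embryos and 0.65 within 1 pool (window 6 over 5). Within 1 pool Ldh was -0.000956 (window 5 over 4) and 0.092 (window 6 over 5). In window 6 over window 5, Hex-A was -0.28 with spike-in scaling, -0.31 by limma voom and -0.095 within 1 pool, Pgk -0.12 with spike-in scaling, and Tpi -0.065 and Pglym78 -0.15 by limma voom. The Gapdh1 to Ldh difference was 0.84 without the shallow libraries.

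No paired analysis was possible because no label ties embryos of different windows. The planned search of promoters for ERR half-sites was not run, since no promoter table was used here. Depth limits the low phase: 3 counts were worth up to 6.83 CPM in window 2 and 4.75 CPM in window 3. Levels of Tpi and Gapdh1 below that could be missed.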
